A study of Drosophila melanogaster with 4 samples.

Results

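The genes of lipid synthesis, storage, transport and oxidation were chosen by their current NCBI names, through the Entrez identifier of each probe. The naming rule uses no measured value, but it was written with earlier results of these data known. The names cover the fatty acid synthases, elongases, desaturases, lipases, lipid droplet proteins, lipoprotein genes, enzymes of fatty acid oxidation and the Niemann-Pick type C (Npc) genes of sterol trafficking. Of 48 genes in the NCBI table with such a name, 43 had a probe, out of 12057 genes on the array. A value in both biological replicates was available for 37 of them, which are the genes tested here. There were 4 genes without any value (*ACC*, *Elo68alpha*, *LpR2* and *Npc2d*) and 2 with values in replicate 2 alone (*eloF* and *Npc2e*). No annotated probe was found for *Baldspot*, *EloC*, *Fatp1*, *Mtpalpha* and *Npc1b*. The prefix Elo also took in *EloA* and *EloB*, which encode elongins. These are subunits of a transcription elongation factor and not enzymes of lipid metabolism, so the tested set held 35 lipid genes and 2 elongin genes.

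Whole wandering larvae of the third instar were compared by 2-color spotted oligonucleotide arrays. Mutants carried the *trx* alleles E3 and B11 in trans (w1118;+;trxE3/trxB11), and larvae of the isogenic line w1118;+;+ gave one pool of wild-type RNA that was the reference on every array. All larvae were reared at 21°C on food with 0.025% bromophenol blue, by which the gut was staged, and mutants were selected as Tb+ larvae from stocks balanced with TM6c. Chromosomes X, Y and 2 of the mutant stocks had been replaced by those of the isogenic line, whereas the chromosome that carries *trx* is not named among them. There were 4 arrays, namely 2 RNA extractions of mutant larvae (the biological replicates) with 2 dye-swapped arrays each. Separate cultures of larvae are not described, so the only replication behind the p values is that of the 2 extractions. With so few values, limma also draws the spread of each gene toward one estimated over all genes tested. The spread between wild-type larvae was not measured. Every value below is a log2 ratio of mutant over wild type, in which 1 is a 2-fold higher transcript level in the mutant. A ratio gives no transcript level, and in whole larvae fewer cells of a type cannot be told apart from less RNA per cell.

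Insect larvae build fat in the fat body. Acetyl-CoA is turned into fatty acids by acetyl-CoA carboxylase and fatty acid synthase, the chains are lengthened by elongases and desaturated, and they are stored as triacylglycerol in droplets coated by perilipins. Lipases release the fatty acids again, lipophorin particles carry lipid through the hemolymph, and mitochondria oxidize the fatty acids after their transfer by the carnitine palmitoyltransferases. Flies cannot make sterols and take them up from the diet, so proteins that move sterols in the gut and in lysosomes supply the precursor of the molting hormone ecdysone.

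Between 11199 and 12775 of 16416 spots had a value on an array, and between 34 and 38 of the 43 genes of the list did. The array medians lay between -0.03 and -0.01. Over all spots, Pearson's r was 0.904 and 0.881 between the dye-swapped arrays of a replicate and between 0.71 and 0.824 across replicates. The mutated gene *trx* had 0.22, 0.13 and 0.28 on the 3 arrays with a value (adjusted p = 0.0859). Which part of *trx* its probe covers is not known, and the level of RNA that the alleles leave is not given, so this does not check the labels.

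In the *trx* mutants, *FASN1* and *Lsd-1* were the 2 genes of the list called lower, and 0 were called higher by limma. A call required an adjusted p under 0.05 together with a 2-fold or larger difference. *FASN1* encodes the main fatty acid synthase and *Lsd-1* a perilipin of the lipid droplet. Among all 10041 genes tested, 2.52% were called lower and 1.57% higher, or 4.09% in either direction, against 5.41% and 0 of the 37 genes here. A mean of 2-fold or more, whatever the p, was found for 3 higher genes (*Lip3*, *mag* and *Npc2f*) and 3 lower ones (*FASN1*, *Lsd-1* and *bond*), with a background of 2.71% in each direction. At an unadjusted p under 0.05, 8 genes of the list were higher (background 17.4%) and 8 were lower (background 20.8%). With no minimum change, an adjusted p under 0.05 was reached by *Lip4*, *Npc2a* and *Npc2b* among higher genes (background 6.49%) and by *FASN1*, *Lsd-1* and *apolpp* among lower ones (background 8.18%). The list as a whole did not lean to one side. Its median was -0.01, against -0.02 for all genes tested, and 54.1% of the genes lay below 0 in both. The absolute mean had a median of 0.31 in the list and 0.16 over all genes. Within 0.5 of 0 were 25 of the 37 genes (67.6%), against 84.5% of all genes tested.

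**Figure D1:**
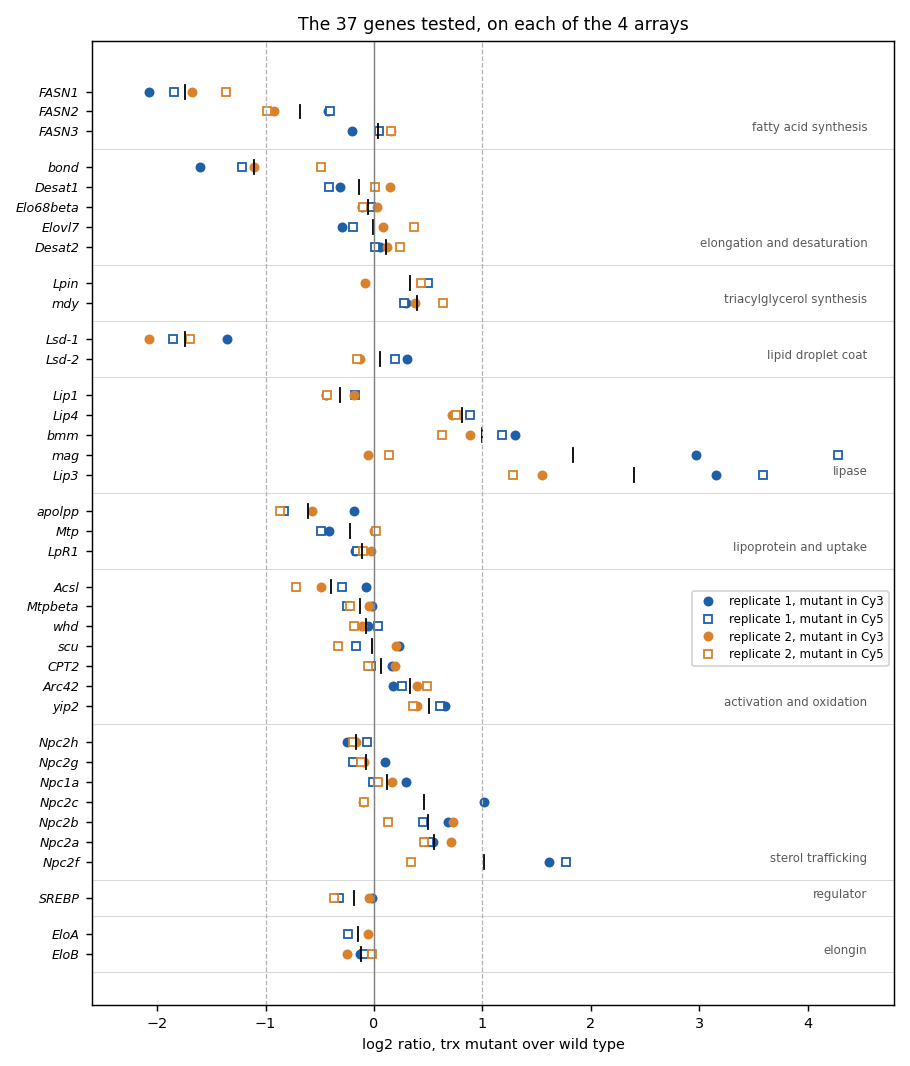
Log2 ratio of trx mutant over wild type (horizontal axis) for the 37 genes tested, grouped by role, with a point for each array and a black bar at the mean of the 2 replicates. Dashed lines mark a 2-fold change. FASN1 and Lsd-1 lie beyond it on all 4 arrays, and mag lies above 2.9 on both arrays of replicate 1 and near 0 on those of replicate 2.

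Fatty acid synthesis was represented by *FASN1*, *FASN2* and *FASN3*. *FASN1* had -2.08 and -1.85 in replicate 1 and -1.68 and -1.36 in replicate 2. It was thus at least 2-fold lower on every array. The mean of -1.74 (standard error 0.139, adjusted p = 0.0280, n = 2) is a 3.34-fold lower level, and 95 of the 10041 genes tested had a lower mean. *FASN2*, its direct neighbor on 2L and a synthase of the oenocytes, had -0.42 and -0.41 in replicate 1 and -0.92 and -0.99 in replicate 2. All 4 arrays were below 0 and the replicates did not overlap. Its mean of -0.68 (standard error 0.168) did not pass the test (adjusted p = 0.0979). The difference between *FASN1* and *FASN2* was not tested. *FASN3* is represented by 6 probes on 3L, of which 2 had no value and none had a value on all 4 arrays. Its mean of 0.04 (adjusted p = 0.760) therefore joins different probes on different arrays. A single probe, with 0.53 and 0.56 in replicate 2, lay above the others there. Acetyl-CoA carboxylase (*ACC*), which makes the substrate of the synthases, had no value on any array.

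Of the elongases in the list, *bond* stood lowest. It encodes an elongase of very long fatty acids that spermatocytes need for cytokinesis. Its ratios were -1.60 and -1.22 in replicate 1 and -1.11 and -0.49 in replicate 2, so that 3 of 4 arrays were more than 2-fold lower. With a mean of -1.10 (standard error 0.190) it missed the threshold (adjusted p = 0.0633). It was called lower without array 1 and without array 4 (adjusted p = 0.0440 and 0.0231), but not without array 2 (0.0655) or without array 3, where its mean was -0.95 (0.119). With the dye-swapped arrays counted as 4 separate samples it was also called (adjusted p = 0.00818, and 0.00994 with a dye term). *Elovl7* had -0.24 in replicate 1 and 0.23 in replicate 2, and its mean of -0.01 had no stable sign. *Elo68beta*, one of a pair of elongase genes on 3L, lay between -0.11 and 0.03 on the 4 arrays. *eloF*, an elongase of female pheromone synthesis, had 0.09 and -0.09 in replicate 2 and no value in replicate 1.

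The desaturases stayed near 0. *Desat1* encodes the delta-9 desaturase of larval lipids, and *Desat2* a related enzyme of pheromone synthesis that lies 2 protein-coding genes away on 3R. *Desat2* had a mean of 0.11 (adjusted p = 0.317). The mean of *Desat1* was -0.14 (adjusted p = 0.510), but its 3 probes did not go together. The first had -0.65 and -0.94 in replicate 1 and 0.83 and 0.42 in replicate 2. The second was between -0.32 and -0.20 on every array and the third between -0.17 and 0.01. The replicates thus lay on opposite sides of 0 in the first probe and close together in the others.

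Of the perilipin genes of fat storage, 1 of 2 was called. *Lsd-1* had -1.36 and -1.86 in replicate 1 and -2.07 and -1.70 in replicate 2. All arrays were more than 2-fold lower, and the replicates overlapped. The mean was -1.75 (standard error 0.0949, adjusted p = 0.0213), a 3.35-fold lower level. The value on array 1 averages 2 probes, of which one had -2.102 there and between -2.07 and -1.70 on the other arrays, while the other had -0.61 on that array and no value elsewhere. *Lsd-2*, the perilipin that shields droplets from lipases, had 0.30 and 0.19 in replicate 1 and -0.13 and -0.16 in replicate 2, with a mean of 0.05 (adjusted p = 0.787). The difference between both perilipins was not tested. The 2 genes of the list for enzymes that complete triacylglycerol had means above 0. The diacylglycerol acyltransferase gene *mdy* lay between 0.27 and 0.64 on all 4 arrays, with a mean of 0.40 (standard error 0.0819, adjusted p = 0.0775). *Lpin*, which encodes the phosphatidate phosphatase lipin, had 0.50 on its only array of replicate 1 and -0.08 and 0.43 in replicate 2 (adjusted p = 0.141).

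Lipases included the highest ratios of the list, with 4 of 5 means above 0. Over all genes tested, 54.1% of means were below 0. Of 25 lipases outside the list, 19 had a mean below 0, and their median was -0.04. *bmm* (brummer) encodes the lipase that breaks down stored triacylglycerol in the fat body, the homolog of mammalian ATGL. It had 1.30 and 1.18 in replicate 1 and 0.88 and 0.63 in replicate 2. All arrays were above 0, those of replicate 1 more so. Its mean of 1.00 (standard error 0.152), or 1.995-fold, lay just below the 2-fold minimum, and the adjusted p was 0.0548. Without array 2, without array 4 and with each array centered on its median *bmm* was called higher (adjusted p = 0.0493, 0.0291 and 0.0495), but not without array 1 (mean 0.97, adjusted p = 0.0456) or array 3 (mean 0.93, adjusted p = 0.0733). *Lip4*, a lipase related to lysosomal acid lipases, had 0.89 on the one array of replicate 1 with a value and 0.72 and 0.76 in replicate 2. It passed the test below the minimum change, with a mean of 0.81 (standard error 0.0653, adjusted p = 0.0282). *Lip1*, of the same family, had a mean of -0.31 (standard error 0.0471, adjusted p = 0.0548) and was below 0 on all 4 arrays.

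*Lip3* and *mag* had the largest means of all genes in the list, and neither passed the test. *Lip3*, a lipase gene known to be induced by starvation in larvae, had 3.16 and 3.59 in replicate 1 and 1.55 and 1.28 in replicate 2. It was more than 2-fold higher on all 4 arrays, and its mean of 2.40 is a 5.26-fold higher level. The standard error was 0.587 and the adjusted p 0.0972. It was called higher only where the dye-swapped arrays of an extraction were counted as separate samples, which overstates the number of replicates (adjusted p = 0.0117, and 0.0239 with a dye term). *mag* (magro) encodes a lipase that the midgut secretes to digest dietary fat and sterol esters. It had 2.97 and 4.28 in replicate 1 and -0.06 and 0.14 in replicate 2. The replicates shared no level, and the mean of 1.83 (standard error 1.07, adjusted p = 0.305) describes neither of them. Of the genes tested, 99.98% had a smaller difference between replicates than *mag*, and 99.6% had a smaller one than *Lip3*.

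**Figure D2:**
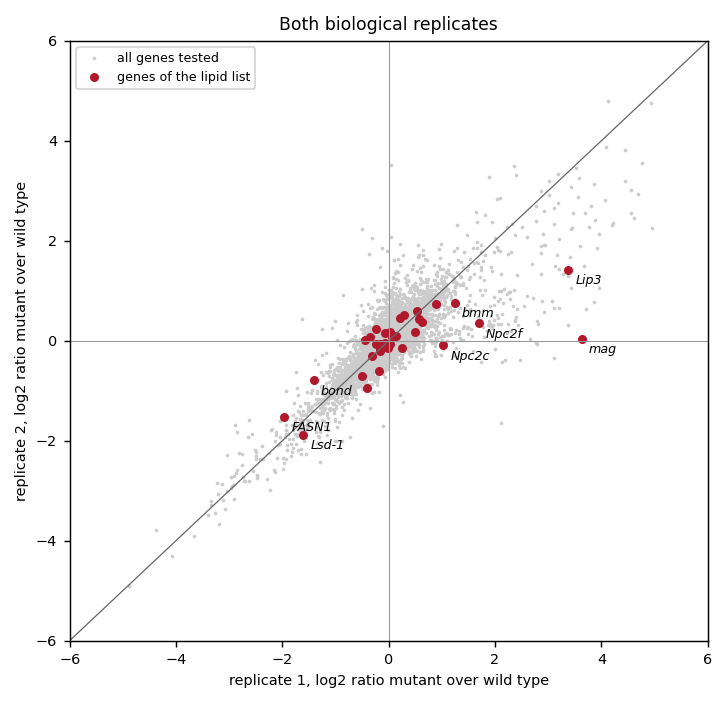
Mean log2 ratio in replicate 1 (horizontal axis) and replicate 2 (vertical axis), with all 10041 genes tested in gray and the 37 genes of the list in red. The line marks equal ratios. FASN1, Lsd-1 and bond are below 0 in both replicates and differ between them by 0.28 to 0.62, while mag, Lip3, Npc2f and Npc2c lie to the right of the line by 1.12 to 3.59.

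In 4 of the 37 genes (10.8%) replicate 1 exceeded replicate 2 by more than 1, and in 0 the reverse was seen. Over all genes tested these shares were 1.39% and 0.568%. The 4 genes were *mag*, *Lip3*, *Npc2f* and *Npc2c*. All 8 midgut marker genes with values (of 11 listed) had the higher ratio in replicate 1, 4 of them by more than 1, and the median of the list was 2.09 there and 0.46 in replicate 2. *Amy-p*, an amylase gene, had 0.21 in replicate 1 and -0.13 in replicate 2. The trypsin gene *alphaTry* had 3.10 and 3.77 in replicate 1 and 1.09 and 1.03 in replicate 2, and the maltase gene *Mal-A1* had 3.65, 4.28, 1.15 and 0.97 on arrays 1 to 4. *Jon65Aiv*, a serine protease gene, was the only one called, with a mean of 3.13 (standard error 0.343, adjusted p = 0.0378). Of the fat body list, 3 of 6 genes were tested. *Lsp2*, a storage protein, had 3.67, 4.51 and 3.87 on its 3 arrays and was called higher (mean 3.98, adjusted p = 0.0142), while *Fbp2* had 1.68 in replicate 1 and 0.48 on the one array of replicate 2 with a value, and *Fbp1* had 0.13 and 0.42. Salivary gland genes were measured for 3 of 6, with *Sgs5* called higher (4.56 and 3.01, 1 array a replicate), *Sgs4* at 1.85 and 0.20 and *Sgs1* between -0.53 and 0.15 on the arrays. The part of these tissues in the ratios of *mag*, *Lip3*, *Npc2f* and *Npc2c* was not tested.

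**Figure D3:**
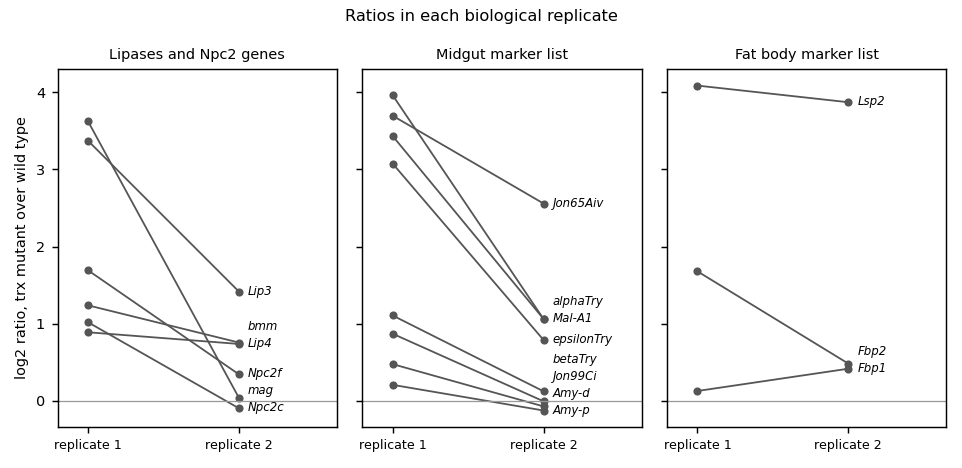
Log2 ratio of trx mutant over wild type (vertical axis) in replicate 1 and replicate 2, joined by a line for each gene, for 6 genes of the list, for the midgut markers and for the fat body markers. All 8 midgut genes have the higher ratio in replicate 1, as do mag, Lip3, Npc2f, Npc2c, bmm and Lip4. These 6 were picked by hand from the lipases and Npc2 genes of the list. Of the tested ones not shown, Lip1 and Npc2a have the higher ratio in replicate 2, and Npc2b, Npc2g and Npc2h in replicate 1. Of the fat body genes, Lsp2 has 4.09 and 3.87, Fbp2 has 1.68 and 0.48, and Fbp1 has 0.13 and 0.42.

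Of lipid transport, *apolpp* passed the test below the minimum change. It encodes the apolipophorins, the protein core of lipophorin, which the fat body secretes. Its ratios were -0.18 and -0.83 in replicate 1 and -0.57 and -0.87 in replicate 2. The mean of -0.61 (standard error 0.0776, adjusted p = 0.0443) is a 1.53-fold lower level. The arrays were all below 0 and differed more by dye than by replicate. The test was no longer passed without array 2 (mean -0.45, adjusted p = 0.156) or without array 3 (adjusted p = 0.0618). *Mtp* encodes the transfer protein that loads lipid onto apolipophorins. It had -0.42 and -0.49 in replicate 1 and 0.00 and 0.02 in replicate 2, so that replicate 1 alone was lower (adjusted p = 0.353). The lipophorin receptor gene *LpR1*, averaged over 2 probes, lay between -0.17 and -0.03 (adjusted p = 0.243). Neither *LpR1* probe had one sign on every array, with ranges of -0.20 to 0.09 and -0.35 to 0.14. Its neighbor *LpR2* on 3R had no value. A probe annotated as *Fatp*, a fatty acid transport protein gene, carries an Entrez identifier that the NCBI table does not hold, so the rule did not take it in. The table gives Fatp as an older name of *Fatp1*, which the rule does name, and whether the probe belongs to *Fatp1* was not settled. If it does, the list held 3 genes called lower. The probe was named after its values were seen. It had -1.35, -1.10, -1.48 and -1.31 on arrays 1 to 4 and was called lower, with a mean of -1.31 (standard error 0.0688, adjusted p = 0.0208).

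Genes of fatty acid activation and oxidation were not called in either direction by limma. Of 7 tested, *yip2* and *Arc42* were higher at an unadjusted p under 0.05 (background 17.4%). The thiolase gene *yip2*, for the last step of mitochondrial oxidation, had 0.66 and 0.61 in replicate 1 and 0.40 and 0.36 in replicate 2, with a mean of 0.51 (standard error 0.0892, adjusted p = 0.0647). *Arc42*, an acyl-CoA dehydrogenase gene, had 0.18, 0.26, 0.40 and 0.49 (mean 0.33, adjusted p = 0.0990). Both were above 0 on every array. *Acsl*, whose product links long fatty acids to coenzyme A, was below 0 on every array, from -0.72 to -0.07, with a mean of -0.39 (adjusted p = 0.154). The others lay close to 0. The carnitine palmitoyltransferase genes *whd* and *CPT2* had means of -0.08 and 0.07, and the 2 probes of *whd* had -0.23 and 0.16 on average. *Mtpbeta*, of the trifunctional protein, had -0.13 and *scu*, a hydroxyacyl-CoA dehydrogenase gene, -0.01.

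Of the sterol trafficking genes, 5 of 7 were above 0, while 54.1% of all genes tested were below 0. The Npc2 proteins bind free sterol, and Npc1a passes it out of lysosomes. *Npc2a* and *Npc2b*, which act redundantly in sterol homeostasis, passed the test below the minimum change. *Npc2a* had 0.54, 0.50, 0.71 and 0.46 on arrays 1 to 4 (mean 0.55, standard error 0.0505, adjusted p = 0.0316). *Npc2b* had 0.69, 0.46, 0.73 and 0.13 (mean 0.50, standard error 0.0633, adjusted p = 0.0443). All arrays were above 0 in both genes, and *Npc2b* was higher with the mutant in Cy3. *Npc2b* no longer passed the test without array 3 (mean 0.35, adjusted p = 0.185) or without array 2 (adjusted p = 0.0522), whereas *Npc2a* passed it without each array. *Npc2f* had 1.62 and 1.77 in replicate 1 and 0.34 on the only array of replicate 2 with a value, which gave a mean of 1.02 (standard error 0.406, adjusted p = 0.188). *Npc2f* was called higher only where the dye-swapped arrays of an extraction were counted as separate samples (adjusted p = 0.0422), and remained uncalled under the other alternatives. *Npc2c* had 1.02 on 1 array of replicate 1 and -0.10 and -0.09 in replicate 2 (adjusted p = 0.387). Its neighbor *Npc2e* had -0.03 and -0.11 in replicate 2. The adjacent genes *Npc2g* and *Npc2h* had means of -0.07 and -0.17, and *Npc1a* had 0.12 (adjusted p = 0.192).

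*SREBP* encodes the transcription factor that activates fatty acid synthesis genes. Its ratios were -0.02 and -0.33 in replicate 1 and -0.04 and -0.37 in replicate 2, and its mean of -0.19 (standard error 0.0482) was not called (adjusted p = 0.103). The values pair by dye and not by replicate. The elongin genes *EloA* and *EloB* had means of -0.15 and -0.12, the former from 2 arrays (adjusted p = 0.240 and 0.186).

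A dye effect is not part of the standard errors, so both orientations were set side by side for the 32 genes measured on all 4 arrays. The absolute difference between the dyes had a median of 0.13 in these genes and 0.11 over all genes with 4 arrays. It was 0.76 in *mag*, where Cy5 gave the higher ratio. In *bond* it was 0.50, with -1.36 in Cy3 and -0.85 in Cy5. In *apolpp* the mutant had -0.38 in Cy3 and -0.85 in Cy5, and in *scu* 0.22 and -0.24. *scu* and *CPT2* had the sign of their dye on all 4 arrays, which makes 6.25% of 32 genes, against 5.76% over all genes with 4 arrays. For the genes called, *FASN1* had -1.88 in Cy3 and -1.60 in Cy5, and *Lsd-1* had -1.72 and -1.78. Of the 32 genes, 20 had one sign on every array (62.5%), and the background was 62.6%.

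**Figure D4:**
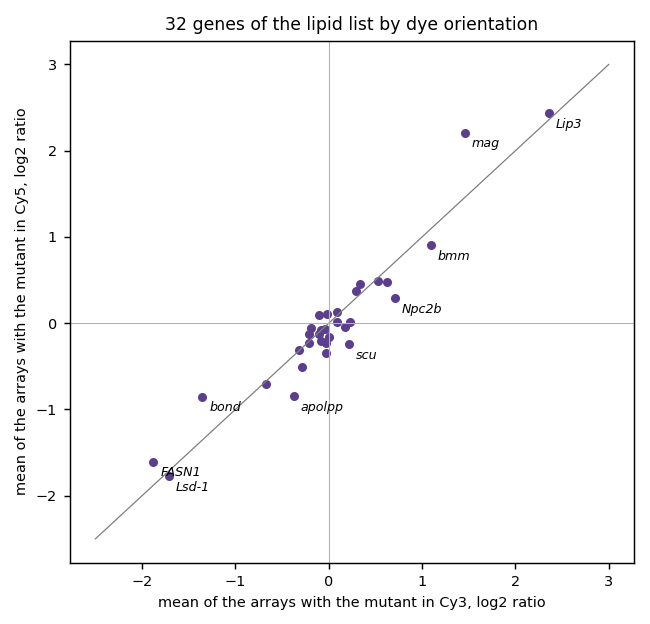
Mean log2 ratio of the arrays with the mutant in Cy3 (horizontal axis) and in Cy5 (vertical axis) for the 32 genes measured on all 4 arrays. The line marks equal ratios. Lsd-1 and Lip3 lie near it, while mag, bond, apolpp and scu lie off it.

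A further 129 lipid genes outside the list were looked up by role, of which 100 were tested. There were 2 called higher and 3 lower, and 69 were below 0. The median was -0.10. The backgrounds for these calls are 1.57% and 2.52%. At an adjusted p under 0.05 with no minimum change, 7 were higher (background 6.49%) and 18 lower (background 8.18%). Genes that supply acetyl-CoA and NADPH to fatty acid synthesis were all 4 below 0, with 0 called in either direction by limma. With no minimum change, 2 of them were lower at an adjusted p under 0.05 and 3 at an unadjusted one (background 20.8%). The ATP citrate lyase gene *ATPCL* had -0.99, -1.32, -0.52 and -0.79 on arrays 1 to 4 (mean -0.90, adjusted p = 0.0640). *Men-b*, a malic enzyme gene, had a mean of -0.74 (adjusted p = 0.0253).

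All 11 other elongases tested had a mean below 0, with a median of -0.61. Of all genes, 54.1% were below 0, with a median of -0.02. Those called lower were *CG18609*, with -1.13, -1.35, -1.56 and -1.34 on arrays 1 to 4 (mean -1.34, standard error 0.0784, adjusted p = 0.0219), and *CG9459*, with -1.06, -0.89, -1.27 and -0.83 (mean -1.01, standard error 0.0527, adjusted p = 0.0206). Every array was lower in both. Of uncalled genes, *CG8534* had a mean of -0.98 (adjusted p = 0.0378) and *CG5326* one of -0.90 (adjusted p = 0.124). Elongases related in sequence can share signal on such probes, and this was not tested. Among the other desaturases *CG8630* was called lower (mean -1.29, standard error 0.160, 3 arrays, adjusted p = 0.0438), and 3 of 5 were below 0. Of those not called, *CG9747* had a mean of -0.44 (adjusted p = 0.0376) and *CG15531* one of 0.40 (adjusted p = 0.0561).

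In glycerolipid synthesis *Gpdh1*, which makes glycerol 3-phosphate, was called higher. Its ratios were 1.62, 2.02, 1.52 and 1.92 on arrays 1 to 4, so that all arrays were more than 2-fold higher (mean 1.77, standard error 0.0552, adjusted p = 0.0192). The other 9 genes of that list were not called, and *Agpat4* and *Agpat2*, acyltransferase genes, had means of -0.84 and -0.65 (adjusted p = 0.0596 and 0.0385). Of 25 other lipases 1 was called higher, *CG6271*, with 3.43 and 4.704 in replicate 1 and 3.03 and 2.61 in replicate 2 (mean 3.44, standard error 0.375, adjusted p = 0.0374). The median of these lipases was -0.04, and 19 were below 0. The lipase genes *CG6277*, *CG6295* and *CG6283* had means of 0.43, 1.40 and 1.75 and were not called (adjusted p = 0.439, 0.201 and 0.124, the last with 3 arrays). Replicate 1 was above replicate 2 in each, with 1.03 and -0.16 for *CG6277*, 2.37 and 0.42 for *CG6295*, and 2.60 and 0.90 for *CG6283*.

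Of 21 other genes of fatty acid oxidation 0 were called by limma and 14 were below 0. With no minimum change, 5 were lower at an adjusted p under 0.05 (background 8.18%). At an unadjusted p under 0.05, 10 were lower (background 20.8%, also for the lists that follow) and 2 higher (background 17.4%). The acetyl-CoA thiolase gene *Acat2*, which the study annotates to the cytosol without an oxidation term, had a mean of -1.002 (adjusted p = 0.0540). *CG4592*, an enoyl-CoA isomerase gene, had -0.85 (adjusted p = 0.0217). The lists of acyl-CoA synthetases and of lipid carriers also held 0 calls, with medians of -0.03 (4 genes) and 0.10 (9 genes). At an unadjusted p under 0.05 the former held 1 higher and 2 lower genes and the latter 4 higher and 2 lower. In these lists *pdgy*, an acyl-CoA synthetase gene, had a mean of 0.61 (adjusted p = 0.0885), *bgm* had -0.37 (adjusted p = 0.0453), *emp* had -0.66 (adjusted p = 0.0272) and the scavenger receptor gene *crq* had 0.51 (adjusted p = 0.0801). Of 11 regulators 0 were called. At an adjusted p under 0.05 with no minimum change, 3 were higher (background 6.49%) and 1 lower (background 8.18%). At an unadjusted p under 0.05, 3 were higher and 3 lower. *Akh*, the adipokinetic hormone that mobilizes fat, had 0.70, 0.80, 0.88 and 0.96 on arrays 1 to 4 (mean 0.84, standard error 0.0685, adjusted p = 0.0287). The *SREBP* proteases were on opposite sides of 0, with 0.53 for *S2P* (adjusted p = 0.0387) and -0.51 for *S1P* (adjusted p = 0.0433).

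**Figure D5:**
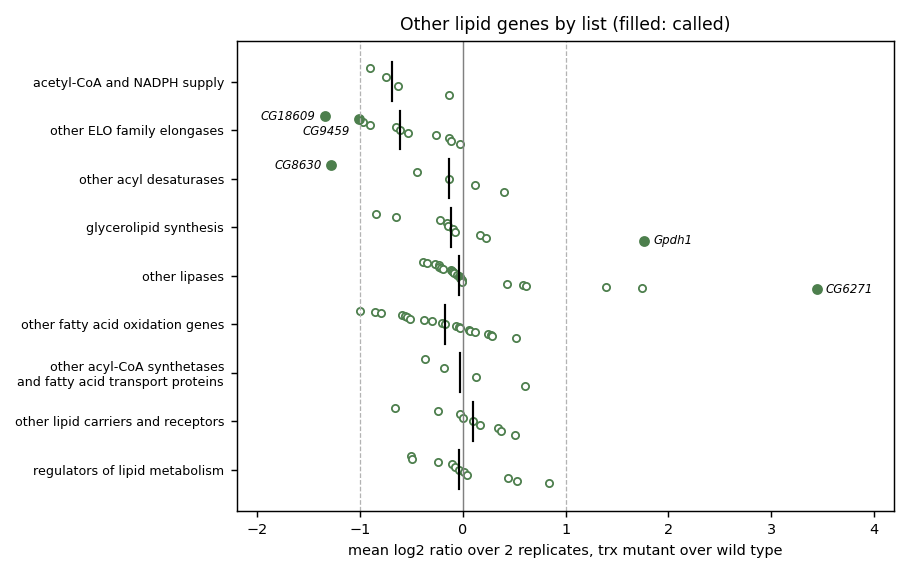
Mean log2 ratio over the 2 replicates (horizontal axis) for 100 further lipid genes in 9 lists, with filled points for the called genes and a black bar at the median of each list. All 11 elongases and all 4 genes of acetyl-CoA and NADPH supply lie below 0.

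Genes of the list were spread over the arms, with 9 tested on 2L, 4 on 2R, 6 on 3L, 15 on 3R, 2 on X and *apolpp* on chromosome 4. The called genes are *FASN1* on 2L and *Lsd-1* on 3R. Some elongase genes with means below 0 were neighbors. On 3R, the elongase genes *bond* and *sit* are adjacent, and 1 protein-coding gene lies between *bond* and the elongase gene *CG5326*. The means of *CG5326*, *bond* and *sit* were -0.90, -1.10 and -0.65, each lower in replicate 1 than in replicate 2, and none was called (adjusted p = 0.124, 0.0633 and 0.123). In another run of elongases on 3R with no other protein-coding gene between them, *CG8534*, *CG16904*, *CG9459* and *CG9458* had means of -0.98, -0.61, -1.01 and -0.53, while *eloF* within that run was near 0 in replicate 2. Only *CG9459* of that run was called, and *CG9458* had an adjusted p of 0.135. The adjacent elongase genes *CG18609* and *CG17821* on 2R had means of -1.34 and -0.26, of which the former was called. Of the pair *FASN2* and *FASN1*, 1 gene was called.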

How the data were processed

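The deposited values are, for each spot, a log2 ratio of mutant RNA to wild-type RNA. The authors quantified scans in GenePix Pro, discarded spots of poor quality, and then applied normexp background correction (limma), OLIN within arrays and a scaling between arrays. The limma and OLIN versions they used were not given in the sources used here. Removed spots carry no value and signal intensities were not analysed here, so the number of arrays limits the precision. Arrays of opposite dye orientation correlated above 0, so no sign was changed. Direction was taken from the lists of deregulated genes of the study, in which 207 of 207 over-expressed genes with a value were above 0 and 234 of 235 under-expressed genes below 0.

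The platform annotation named 1 gene for 13163 probes, of which 12673 matched the NCBI gene table (Release 6 plus ISO1 MT) and 490 kept their symbol. The 102 probes with several genes or none and 3151 unlisted spots were left out. The member names were matched without regard to case. Coordinates are not printed, since the table is of a later assembly than the study's. Probes of a gene were averaged on each array, and the arrays were averaged within a replicate. These 2 values were tested against 0 with limma 3.58.1 (R 4.3.3; prior degrees of freedom 1.80, prior SD 0.0830) and Benjamini-Hochberg adjustment over all 10041 genes, after a test on simulated data. Standard errors are moderated ones, so a gene whose replicates nearly coincide, such as *Lip1*, still has a standard error of 0.0471. Genes were called at an adjusted p under 0.05 and at least 2-fold. Arrays 1 and 2 are replicate 1 and arrays 3 and 4 replicate 2, with the mutant in Cy3 on arrays 1 and 3. Named are all genes of the list and, of other lists, called genes (up to 6 a direction) and up to 2 uncalled ones with the largest mean on 4 arrays. Some other uncalled genes (*CG6283*, *S1P*, *sit*, *CG16904*, *CG9458* and several markers) were named after their values were seen. The list and all gene lists were chosen with earlier results of these data known. Alternatives were single arrays or replicates left out, other units of replication, filters, probe summaries, centering and threshold.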

Additional observations from a re-analysis of the deposited data

How the results depend on the processing

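*FASN1* and *Lsd-1* were called lower under every alternative with a test. The number of genes of the list called lower was 2 or 3 throughout. The number called higher was 0, with a range of 0 to 1 on leaving out single arrays, 1 with the arrays centered on their medians, 1 with a dye term, 2 with the arrays as 4 independent samples and 3 with no minimum change. Over all genes 158 were higher and 253 lower. The former were 240 with 4 independent arrays, 132 to 174 with an array left out and 652 with no minimum change, and the latter were 221 to 272 and 821. The median of the list was -0.0146. It was -0.0642 over genes on all 4 arrays, 0.00906 with centered arrays, -0.0255 with probes on at least 3 arrays (an alternative chosen after seeing the data), and between -0.0455 and -0.0287 with an array or a replicate left out. Of the 37 genes 34 had one sign under every alternative with a test. *Elovl7* reversed to 0.0155 with centered arrays and ranged from -0.243 to 0.227 with an array or a replicate left out, *scu* reversed to 0.00906 and ranged from -0.148 to 0.118, and *FASN3* reversed to -0.0364 with probes on at least 3 arrays and ranged from -0.0789 to 0.157. In 7 of the 37 genes (18.9%) the 2 replicates had opposite signs, against 19.0% of all genes tested. The causes of the reversals under the alternatives were not tested. Leaving out a replicate left 1 replicate and no test. Each ratio sets mutant against wild-type RNA on the same array, and no further pairing of samples was made.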

Other observations

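Markers of other tissues in the larva were read from the same fit. Of the oenocytes, the cells that make cuticular hydrocarbons, *Cyp4g1* was called lower, with -1.03 and -1.67 in replicate 1 and -2.15 and -1.94 in replicate 2 (mean -1.70, standard error 0.214, adjusted p = 0.0443). *Cyp4g1* encodes the cytochrome P450 that releases hydrocarbons from fatty aldehydes. The other 3 oenocyte genes were not called. *FarO*, a fatty acyl-CoA reductase gene, had a mean of 0.29 (adjusted p = 0.0661), *spidey* had -0.31 (adjusted p = 0.143) and *svp* had 0.07 (adjusted p = 0.469).

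Of the hemocyte list 5 of 6 genes were tested and 0 were called by limma. At an adjusted p under 0.05 with no minimum change, 1 was higher (background 6.49%) and 2 were lower (background 8.18%). At an unadjusted one, 1 was higher (background 17.4%) and 3 were lower (background 20.8%). These backgrounds also hold for the muscle list. The collagen IV genes *Col4a1* and *vkg*, which the fat body also expresses, had means of -0.77 and -0.69 (adjusted p = 0.0287 and 0.0467). *NimC1* was higher, with a mean of 0.34 (adjusted p = 0.0494). *Hml* and *Pxn* had means of -0.35 and -0.30 (adjusted p = 0.0750 and 0.299). Of 7 muscle genes 4 were tested and 0 were called, with 0 also at an adjusted p under 0.05 with no minimum change and 1 higher at an unadjusted one. *up*, which encodes troponin T, had the highest mean of these, 0.73 (adjusted p = 0.113). *Tm2* and *Mlc2* had means of 0.46 and 0.09 (adjusted p = 0.149 and 0.729). The lowest mean was that of *Mlc1*, -0.38 (adjusted p = 0.206).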
